A study of Mus musculus with 28 samples.

Results

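The surfactant protein genes Sftpa1, Sftpb, Sftpc and Sftpd were followed in sorted epithelial cells of the mouse lung in which Yap had been genetically activated or deleted. They were taken by name from the deposited gene tables, in which they are 4 of 23478 gene rows. All 19 RNA libraries of the series (28 samples in all) were used, and all 4 genes passed the filter on low counts in both tables. Values are in CPM, read counts per M of the scaled library size as edgeR gives it.

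The Yap active group comprised 6 libraries from Stk3flox/flox/Stk4flox/flox SftpcCreert2 mice, and its 4 control libraries came from mice with the same floxed alleles and no Cre. The Yap deleted group comprised 5 libraries from Yapflox/flox SftpcCreert2 mice, set against 4 control libraries from Yapflox/flox mice. The genetic change was made at postnatal day 3 and the cells were collected at postnatal day 14. Magnetic beads depleted cells with the surface proteins CD31, CD271, CD90.2, Ter119, CD16/32 and CD45, and CD326 (EPCAM) positive cells were then selected. The Cre driver takes its promoter from Sftpc, a gene measured here, and no group carried the driver with unfloxed alleles. The sources used here do not give the agent that induced it, or whether the driver sits in the Sftpc locus itself. No label ties a library to an animal of its own, so p-values measure the spread between these libraries, which may be technical.

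Pulmonary surfactant is a film of lipid and protein that keeps the air spaces from collapsing, and alveolar type 2 (AT2) cells make, store and secrete it. Sftpb and Sftpc encode the small hydrophobic proteins that spread the lipid, both cut from larger precursors on the way to the lamellar body. Sftpa1 and Sftpd encode collectins, secreted sugar-binding proteins of innate defence that also take part in surfactant turnover. Sftpc is a standard marker of AT2 cells, whereas club cells of the airway also make some of the other surfactant proteins. Yap is a coactivator that works with TEAD factors and is restrained by the Hippo kinases MST2 and MST1, the products of Stk3 and Stk4.

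In mm10 coordinates, the build of the files (GRCm38), 3 of the 4 genes lie on chromosome 14. Sftpa1 spans positions 41131788 to 41136373 and Sftpd spans 41172212 to 41185198, with 35.8 kb between them. Sftpc lies at 70520941 to 70524081 of the same chromosome. Sftpb lies on chromosome 6 at 72304610 to 72314373. The 250 bases before the start of Sftpa1 and of Sftpb are shown because these are the promoters of the members that matched the RefSeq table of GRCm38.p6 (2 of 4), and because these 2 genes moved together across libraries. Capitals mark CTCAAG, the core of sites bound by NKX2-1, the factor known for driving surfactant genes.
Sftpa1, chr14:41131538-41131787, plus strand: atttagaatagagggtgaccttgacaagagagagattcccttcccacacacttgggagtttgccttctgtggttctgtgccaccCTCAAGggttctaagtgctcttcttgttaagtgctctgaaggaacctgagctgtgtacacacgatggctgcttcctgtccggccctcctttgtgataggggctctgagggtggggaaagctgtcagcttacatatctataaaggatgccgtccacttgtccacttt
Sftpb, chr6:72304360-72304609, plus strand: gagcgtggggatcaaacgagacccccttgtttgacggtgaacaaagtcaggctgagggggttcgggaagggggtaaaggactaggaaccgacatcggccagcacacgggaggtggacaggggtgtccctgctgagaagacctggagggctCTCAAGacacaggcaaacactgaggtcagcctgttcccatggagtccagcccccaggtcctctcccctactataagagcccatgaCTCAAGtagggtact

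Searched on both strands, CTCAAG occurred once in the Sftpa1 window, beginning 166 bases before the start, and at 2 places in the Sftpb window, 100 and 15 bases before it. Windows of the same length holding this motif made up 13.6% of the 27025 promoters in the table. CACCC, a core of KLF sites, had 3 matches for Sftpa1 and 1 for Sftpb, and 51.3% of promoters held it. The TEAD core GGAATG (12.6% of promoters), the NFI motif TTGGCA (12.5%) and the FOXA motif TGTTTAC (3.09%) had 0 matches in either window. The CACCC match that begins 170 bases before the Sftpa1 start shares its last base with the CTCAAG there. A match is a description of the letters only.

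Depth was alike in both tables, with a median library of 38.1 M counts in the Yap active line (35.0 to 43.5 M) and of 37.0 M in the Yap deleted line (31.9 to 42.9 M). The 4 surfactant genes together took 2.72% to 10.2% of all counts in the first table and 1.99% to 6.86% in the second. The lowest count of Sftpc in any library was 88563, so counting error is small beside the spread between libraries. All 15 AT2 markers passed the filter, and their summed level ran from 19238 to 83386 CPM over the 19 libraries. AT1 markers were also present, at a summed 4859 to 19246 CPM.

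Several libraries stood apart or went against their labels. Esr1, to which reads of the estrogen receptor part of a CreERT2 driver may be counted, had 242 to 531 CPM in the Yap deleted group and 211 to 335 CPM in Yap active 2 to 6. Its value was 1.97 CPM in the library labelled Yap active 1, 160.0 CPM in that labelled Yap active control 2 and 87.1 CPM in that labelled Yap deleted control 2, against 0.952 to 3.91 CPM in the remaining controls. Of the targeted genes, Stk3 had 30.6 to 35.4 CPM in Yap active 2 to 6 and 49.5 CPM in the library labelled active 1, and its controls 1 to 3 had 50.2 to 54.6 CPM and control 4 had 34.0 CPM. Stk4 had 78.5 to 94.1 CPM in Yap active 2 to 6, 125 CPM in active 1 and 103 to 120.0 CPM in the controls. Yap1 had 78.3 to 142 CPM in the deleted group and 119 to 215 CPM in its controls, the lowest being control 2. In the Yap active table the first principal component of the most variable genes, the surfactant genes left out, held 69.7% of the variance and set the library labelled active 1 with controls 1 to 3 apart from the rest. Libraries were kept in their labelled groups. Without those whose Esr1 went against the label, the log2 fold changes of Sftpa1, Sftpb, Sftpc and Sftpd were 0.50, 0.81, 0.08 and 0.68 in the active line and 0.87, 0.69, -0.79 and 0.34 in the deleted line, beside the values with all libraries given below.

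Sftpb, which is needed to form lamellar bodies, was measured at 5982, 11144, 7462 and 15049 CPM in Yap active controls 1 to 4. The 6 Yap active libraries ran from 5934 CPM in the library labelled active 1 through a median of 15921 to 20160 CPM. Active library 1 was the lowest of all 10 libraries, 3 of the 6 active libraries lay above the highest control, and the groups overlapped. The log2 fold change was 0.59 ± 0.37 SE (adjusted p = 0.392, edgeR).

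In the other line Sftpb read 4838, 5021, 8613 and 13358 CPM in Yap deleted controls 1 to 4, against 15172, 13706, 12690, 15050 and 15363 CPM in the deleted libraries. The deleted libraries were close to one another, and 4 of 5 exceeded every control, of which control 4 reached into their range. Their log2 SD was 0.119, against 0.698 among the controls. The difference was 0.86 ± 0.35 SE on the log2 scale (adjusted p = 0.306, edgeR).

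Sftpc, the most AT2-specific of the 4, had the widest range, 2064 to 83336 CPM over the 19 libraries, or 40.4-fold, against 3.38-fold to 4.17-fold for the other members. Yap active controls 1 to 4 held 17542, 11639, 18180 and 83336 CPM. The active libraries ran from 11239 CPM in the library labelled active 1 through a median of 38838 to 56759 CPM. Control 4 lay above every active library while the other 3 controls lay below active libraries 2 to 6. The log2 fold change was 0.18 ± 0.59 SE (adjusted p = 0.867, edgeR), and without control 4 it was 1.24 (adjusted p = 0.098, edgeR). Over the 18 alternatives adjusted p ran from 0.00523, by limma-voom with all libraries, to 1.0.

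The library set bore on this value. Within the set of active 1 and controls 1 to 3, the difference in mean log2 Sftpc, active minus control, was -0.46, and within the set of active 2 to 6 and control 4 the difference was -1.01. With the set as a covariate, chosen after seeing the data, the log2 fold change of Sftpc was -0.75 ± 0.24 SE, and those of Sftpa1, Sftpb and Sftpd were -0.14, -0.14 and 0.11. Each set holds 1 library of one of the groups, so the covariate fit rests on active 1 and control 4.

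In the Yap deleted table Sftpc read 10329, 7580, 30026 and 45818 CPM in controls 1 to 4. The deleted libraries held 2854, 2064, 28125, 24307 and 25910 CPM. Deleted libraries 1 and 2 were the lowest of the 19 libraries for Sftpc, and deleted 3 to 5 lay between controls 1 and 3. The log2 SD of the deleted group was 1.88, against 0.192, 0.119 and 0.0832 for Sftpa1, Sftpb and Sftpd in the same libraries. The log2 fold change was -0.49 ± 0.87 SE (adjusted p = 0.78, edgeR), with a 95% interval of -2.2 to 1.21. Without deleted libraries 1 and 2, an alternative chosen after seeing the data, it was 0.14 ± 0.67 SE, and without deleted control 4 it was 0.03.

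Sftpa1, the collectin SP-A, read 4858, 10668, 7097 and 11624 CPM in Yap active controls 1 to 4 and ran from 6513 through a median of 10642 to 13343 CPM in the active libraries. These groups overlapped through most of their range (log2 fold change 0.27 ± 0.30 SE, adjusted p = 0.586, edgeR), and the value ran from 0.08 without control 1 to 0.47 without control 4. Yap deleted controls 1 to 4 held 4005, 4669, 5377 and 11044 CPM, and the deleted libraries held 11885, 10193, 12288, 13996 and 14052 CPM. Only deleted library 2 fell below the highest control. The log2 fold change of 0.99 ± 0.34 SE was the largest of the 4 members in that line, with an adjusted p of 0.264 (edgeR). DESeq2 gave 0.97 with an adjusted p of 0.0399, and adjusted p over all 18 alternatives for this gene ran from 0.0399 to 0.889. In that line DESeq2 called 792 of the 15818 genes that passed the filter, 181 higher and 611 lower.

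Sftpd, the collectin SP-D, was the least variable member. It read 994, 1624, 1077 and 2436 CPM in Yap active controls 1 to 4 and ran from 1466 through a median of 2187 to 3066 CPM in the active libraries. All 6 active libraries exceeded the control median, and 2 exceeded the highest control, control 4 (log2 fold change 0.56 ± 0.29 SE, adjusted p = 0.366, edgeR). Yap deleted controls 1 to 4 held 969, 906, 1212 and 2136 CPM, and the deleted libraries held 1872, 1872, 1667, 1930 and 1776 CPM. The deleted libraries lay within a 1.16-fold range, above controls 1 to 3 and below control 4 (log2 fold change 0.48 ± 0.26 SE, adjusted p = 0.4, edgeR).

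**Figure D1:**
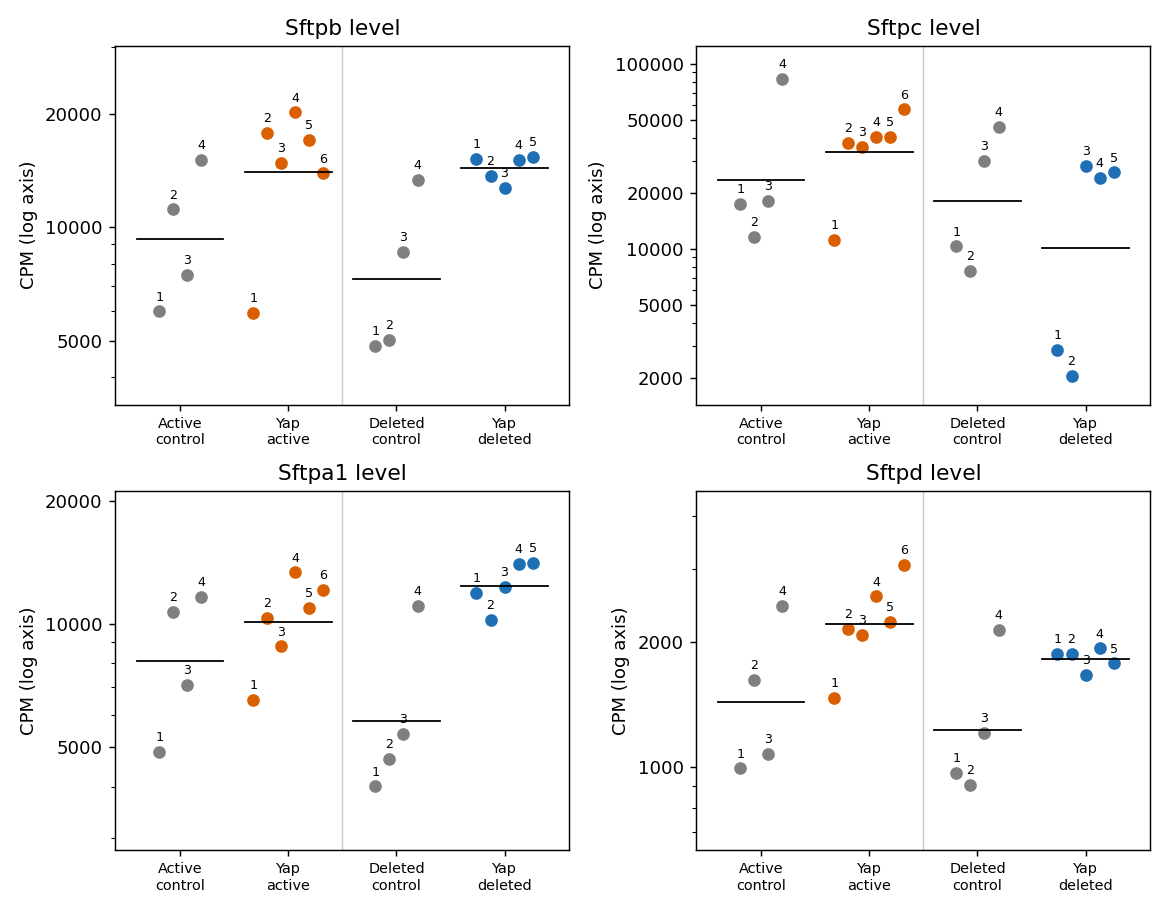
Level of each surfactant gene in CPM (log axis) by group, 1 point per library with its replicate number and a line at the geometric mean. Sftpc spans 2064 to 83336 CPM with deleted libraries 1 and 2 at the bottom, while Sftpb and Sftpd of the same 2 libraries lie among the other deleted libraries and Sftpa1 lies just below them, at 11885 and 10193 CPM.

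None of the 4 members passed the test in either line or for the difference between lines. edgeR called 0 of 15685 genes in the Yap active line (0.0%), and 1 of 15818 in the Yap deleted line (0.00632%). At an unadjusted p under 0.05 the counts were 1981 and 2420 genes, while DESeq2 called 18 and 792. The called gene was Trim12a, which is no surfactant gene and is named here after its value was seen. Libraries of targeted and control mice did not overlap in 148 genes of the active line (0.944%) and in 616 of the deleted line (3.89%), and none of the 4 surfactant genes was among them. The median log2 change of the members was 0.42 in the active and 0.67 in the deleted line, beside -0.01 and 0.01 for all genes tested. For the 15 AT2 markers these medians were 0.38 and 0.68, with all 15 higher in both lines and 0 passing the test. The 15 AT1 markers had medians of 0.18 and -0.57, with 12 of them higher in the active and 2 in the deleted line.

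**Figure D2:**
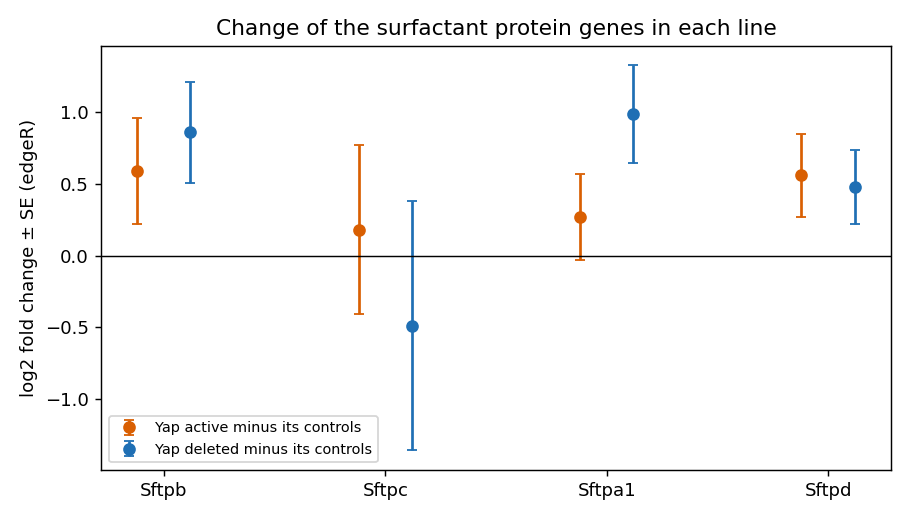
log2 fold change (points) with its SE (bars) of the 4 genes in the Yap active and Yap deleted lines, each against its own controls, from edgeR. Sftpa1 in the deleted line has the largest value, 0.99, and Sftpc has the longest bars, 0.59 and 0.87.

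Whether a change differed between lines was tested directly, with each line set against its own controls in a model of all 19 libraries. The difference, active minus deleted, was -0.72 ± 0.43 SE for Sftpa1 (adjusted p = 0.789), -0.27 ± 0.49 SE for Sftpb (0.929), 0.68 ± 1.08 SE for Sftpc (0.924) and 0.08 ± 0.39 SE for Sftpd (0.977, all by edgeR). The 95% interval of the Sftpc difference ran from -1.43 to 2.8, so these libraries leave a wide range of differences possible. It was 1.72 without active control 4 and 0.14 without deleted control 4, and the Sftpa1 difference was -1.14 without deleted control 4. edgeR called 0 of 16308 genes in this comparison (0.0%), with 1055 at an unadjusted p under 0.05. DESeq2 called 17.

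Markers of other cell types also differed between libraries in the Yap deleted table. In these bulk libraries fewer cells of a type and less RNA per cell cannot be told apart. The 12 endothelial markers, all of which passed the filter, summed to 221 to 298 CPM in the deleted libraries and 279 to 2539 CPM in the controls. The 12 leukocyte markers summed to 61.0 to 206 CPM against 155 to 1143 CPM. Pecam1, which defines endothelium, lay at 322 and 245 CPM in controls 1 and 2 and at 2.13 to 12.9 CPM in the other 7 libraries. Summed AT2 markers ran from 35652 to 48110 CPM in the deleted libraries and from 19238 to 45566 CPM in the controls. Without the endothelial-rich controls 1 and 2 the log2 fold changes were 0.57 for Sftpa1, 0.36 for Sftpb, -1.22 for Sftpc and 0.09 for Sftpd. The part of these cells in the results with all libraries was not tested beyond this.

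In the Yap active table the summed endothelial list was lower and more even, at 222 to 316 CPM in the active libraries and 215 to 501 CPM in the controls, and 10 of its 11 tested markers had negative log2 fold changes (median -1.44). All 12 mesenchymal and mesothelial markers were lower there (median -0.87, 0 passing the test). They summed to 7135 CPM in the library labelled active 1 and to 1304 to 4778 CPM in active libraries 2 to 6, against 7119, 4707, 7514 and 2817 CPM in controls 1 to 4. All 15 AT2 markers had positive changes (median 0.38, 0 passing the test). Club and goblet markers, of cells that also make some surfactant proteins, summed to 5346 to 19654 CPM in the active libraries and 3607 to 11537 CPM in the controls. All 8 had positive log2 fold changes there (median 0.96, lowest adjusted p = 0.366, edgeR), whereas in the deleted line 0 of 8 did (median -0.22). The part of these cell types in the surfactant values was not tested.

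By mean level Sftpb and Sftpd ordered the groups alike, and Sftpa1 and Sftpc each had another order. For Sftpa1 the order was Yap deleted (12483 ± 1612 CPM, SD, n = 5), Yap active (10339 ± 2428, n = 6), active controls (8562 ± 3145, n = 4) and deleted controls (6274 ± 3229, n = 4). Sftpb had Yap active first (14933 ± 4940 CPM), then Yap deleted (14396 ± 1157), active controls (9909 ± 4056) and deleted controls (7957 ± 3998). For Sftpd the means were 2260 ± 533, 1824 ± 103, 1533 ± 664 and 1306 ± 569 CPM in that same order. Sftpc alone had the Yap deleted group last (16652 ± 13030 CPM), below deleted controls (23438 ± 17959), active controls (32674 ± 33903) and Yap active (36962 ± 14694). Neighbours in these orders differed by less than the larger of their SDs, except Yap deleted and active controls for Sftpb, 4487 CPM apart. Levels are compared within a gene only, because transcript lengths were not used here.

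Ratios between members do not depend on how a library is scaled. In the Yap deleted table the count ratio of Sftpc to Sftpb was 2.14, 1.51, 3.49 and 3.43 in controls 1 to 4, and 0.188, 0.151, 2.22, 1.62 and 1.69 in deleted libraries 1 to 5. Fewer reads of Sftpc than of Sftpb were thus counted in deleted libraries 1 and 2, and more in every other library of the series. All 5 deleted libraries lay below the control median and 2 below the lowest control. The mean log2 ratio was -0.51 ± 1.89 (SD, n = 5) against 1.32 ± 0.58 (n = 4), 3.55-fold lower, and the exact two-sided permutation test gave p = 0.135 (adjusted 0.405 over 6 ratios).

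Against Sftpa1 the ratio was 2.58, 1.62, 5.58 and 4.15 in the controls and 0.24, 0.202, 2.29, 1.74 and 1.84 in the deleted libraries. The log2 difference was -1.95 (exact permutation p = 0.111, adjusted 0.405). Against Sftpd the ratio was 10.7, 8.37, 24.8 and 21.5 in the controls and 1.52, 1.1, 16.9, 12.6 and 14.6 in the deleted libraries, a log2 difference of -1.41 (exact permutation p = 0.294, adjusted 0.587). Each ratio was lowest in deleted libraries 1 and 2. With 5 against 4 libraries the smallest p this test allows is 0.00794. None of the 3 ratios passed an unadjusted p under 0.05 or separated the groups. Of the ratios of Sftpc to each of 15817 genes, 0.645% passed that p and 0.234% separated the groups. Without deleted libraries 1 and 2 the differences were -0.69, -0.45 and -0.02 for Sftpa1, Sftpb and Sftpd.

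In the Yap active table the ratio of Sftpc to Sftpb was 2.93, 1.04, 2.44 and 5.54 in controls 1 to 4 and 1.89 to 4.09 in the active libraries. The ratio to Sftpa1 was 1.09 to 7.17 in the controls and 1.73 to 4.69 in the active libraries, and that to Sftpd 7.17 to 34.2 and 7.67 to 18.5. In all 3 ratios control 2 was the lowest library and control 4 the highest, so the active libraries lay inside the range of their controls. The log2 differences were 0.18, -0.09 and -0.12 for Sftpa1, Sftpb and Sftpd (exact permutation p = 0.738, 0.876 and 0.938). Of the ratios of Sftpc to each of 15684 genes there, 0.485% passed an unadjusted p under 0.05, and 0.051% separated the groups. Within the library sets, chosen after seeing the data, the differences were -0.64, -0.62 and -0.87. Exact permutation with 24 regroupings gave p = 0.208, 0.208 and 0.0833 (adjusted 0.25 for each). Each set holds 1 library of one of the groups, so these values rest on active 1 and control 4.

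**Figure D3:**
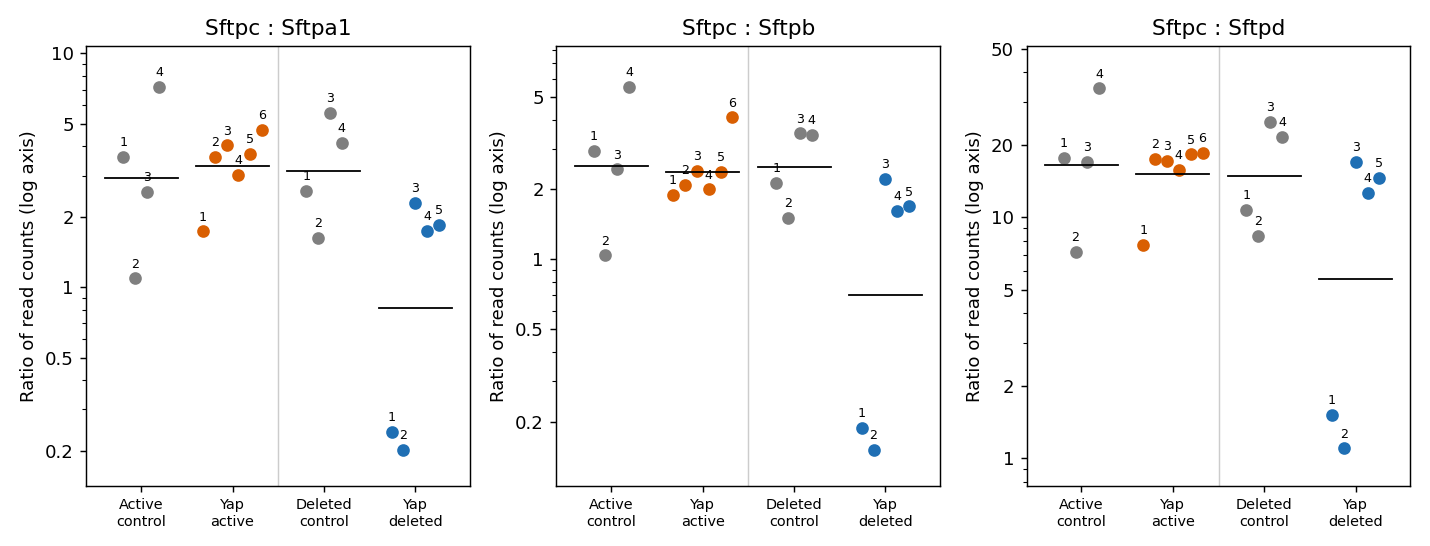
Ratio of Sftpc read counts to those of Sftpa1, Sftpb and Sftpd (log axis) in each library, numbered by replicate, with a line at the geometric mean of each group. Deleted libraries 1 and 2 lie at 0.151 to 0.24 for Sftpa1 and Sftpb and at 1.1 to 1.52 for Sftpd, below all other libraries.

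Set side by side, the change of the ratio in the active line exceeded that in the deleted line by 2.13 on the log2 scale for Sftpa1, 1.74 for Sftpb and 1.29 for Sftpd. Exact permutation over 26460 regroupings gave p = 0.0862, 0.183 and 0.303 for these differences (adjusted 0.259, 0.274 and 0.303 over the 3). Without deleted libraries 1 and 2 they were 0.88, 0.37 and -0.10.

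The ratios that leave Sftpc out were far tighter. Over the 9 libraries of the Yap deleted table the log2 SD was 0.2 for Sftpa1 to Sftpb and 0.26 for Sftpd to Sftpb, against 1.62 to 1.69 for the 3 ratios of Sftpc. In the Yap active table these values were 0.32 and 0.34 against 0.65 to 0.76. Sftpd to Sftpb was 0.116 to 0.137 in the deleted libraries and 0.141 to 0.2 in their controls, without overlap. That is a common outcome in this table, since 18.7% of all ratios of a gene to Sftpb separated the groups. In the Yap active table the same ratio was 0.121 to 0.247 in the active libraries and 0.144 to 0.166 in the controls. The ratio of Sftpc to the summed AT2 markers was 0.0611 and 0.0579 in deleted libraries 1 and 2, and 0.254 to 1.45 in the other 17 libraries.

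Across libraries, log2 CPM of Sftpa1, Sftpb and Sftpd moved together in both tables. Pearson's r was 0.897 for Sftpa1 with Sftpb, 0.894 for Sftpa1 with Sftpd and 0.858 for Sftpb with Sftpd over the 10 libraries of the active table. Over the 9 of the deleted table the values were 0.96, 0.93 and 0.963. Sftpc had an r of 0.649, 0.749 and 0.778 with Sftpa1, Sftpb and Sftpd in the active table and of 0.123, 0.072 and 0.0887 in the deleted table. The points share their libraries, groups and purity, so these are descriptions.

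The genes whose log2 CPM most resembled a member were ranked by the smaller of its Pearson correlations in the 2 tables, among 11874 genes. Nearest to Sftpb were Mlc1 (r = 0.979 in the active and 0.978 in the deleted table), Dtnb (0.979 and 0.976) and Abca3, the lipid transporter of lamellar bodies (0.987 and 0.974). Nearest to Sftpa1 were Fitm2, which acts in lipid droplet formation (0.956 and 0.954), Snx29 (0.95 and 0.952) and 6330416G13Rik (0.953 and 0.941). Nearest to Sftpd were Sfta2, which encodes a surfactant-associated protein (0.951 and 0.948), Rab15 (0.947 and 0.959) and Fasn, the fatty acid synthase (0.938 and 0.955). Sftpc had looser neighbours, with Atg16l1, an autophagy gene, at 0.932 and 0.895, Rps6ka1 at 0.766 and 0.749, and the growth factor gene Bmp2 at 0.747 and 0.734.

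Abca3 was named for its likeness to Sftpb over these libraries, so its values there are a description only. It lay at 2859 and 2413 CPM in deleted libraries 1 and 2 and at 2708, 2860 and 2770 CPM in deleted libraries 3 to 5. Its controls held 1092, 796, 1640 and 2821 CPM. Within the deleted group Sftpa1 was also lowest in libraries 1 and 2, over a 1.38-fold range, against 13.6-fold for Sftpc.

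Genes that process and recycle surfactant gave no call in either line. Of the 16 on the list 15 were tested, all but Adgrf5. In the Yap active line 13 were higher and 2 lower, with a median log2 change of 0.25 and 0 passing the test. The 2 with the highest values were Muc1, a membrane mucin (0.65 ± 0.34 SE), and Atp11a, a phospholipid flippase (0.49), and the 2 lowest were the lysosomal lipase Lipa (-0.46) and the flippase Atp8a1 (-0.13). The lowest adjusted p over the list was 0.366 (edgeR).

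In the Yap deleted line 10 of these 15 genes were higher and 5 lower (median 0.31, 0 passing the test). Napsa, the protease that cuts the precursors of SP-B and SP-C, lay at 1138 to 1852 CPM in the deleted libraries and at 437 to 1055 CPM in the controls. These did not overlap, as was so for 3.89% of all genes tested in that line. Its log2 fold change was 1.18 ± 0.29 SE (adjusted p = 0.247, edgeR). Lpcat1, which makes the saturated lipid of surfactant, followed at 0.85 ± 0.35 SE (877 to 1229 against 292 to 1066 CPM). At the other end were Csf2ra, a subunit of the GM-CSF receptor (-1.05 ± 0.41 SE), and Pgc, a protease of the pepsin family (-1.05 ± 0.49 SE). Csf2ra lay at 19.3 to 34.3 CPM in the deleted libraries and 25.8 to 115 CPM in the controls. Pgc was low in both groups, at 1.64 to 6.76 and 2.75 to 13.1 CPM, and both genes overlapped between groups. For the difference between lines the extremes were Napsa (-0.74) and Lpcat1 (-0.5) on one side and Csf2ra and Pgc (1.08 each) on the other, the lowest adjusted p over the list being 0.742.

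Known regulators of surfactant genes, 25 on the list and all tested, gave 0 calls in any comparison. In each line 15 were higher and 10 lower, with median log2 changes of 0.2 (active) and 0.12 (deleted). In the active line Klf5, a Kruppel-like factor, had 0.72 ± 0.31 SE and Foxa3, a forkhead factor at 0.875 to 2.62 CPM, had 0.67, while the nuclear factor I genes Nfib (-0.62) and Nfia (-0.45) were lowest. In the deleted line the ETS factor Etv5 (0.68) and Cebpa, a factor of AT2 maturation (0.67), were highest and Yap1 itself (-0.78 ± 0.22 SE) and Nfia (-0.58) lowest. Adjusted p was 0.247 or more for every gene of the list in the single lines (edgeR). Between lines Yap1 (0.65) and Klf5 (0.52) had the highest differences, and Etv5 (-0.31) and the thyroid hormone receptor gene Thrb (-0.61) the lowest.

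Genes next to the members were read in the same fits, in a window of 50 kb chosen after seeing the data. Bmp1, a metalloproteinase that matures procollagen, ends 225 bp from Sftpc. It lay at 1414, 1035, 1047, 664 and 564 CPM in deleted libraries 1 to 5 and between 208 and 461 CPM in their controls, without overlap. The groups of that line did not overlap in 3.89% of all genes tested. Its log2 fold change was 1.68 ± 0.34 SE in the deleted line (adjusted p = 0.247, edgeR) and 0.85 ± 0.28 SE in the active line (adjusted p = 0.366, edgeR). Active libraries 2 to 6 held 593 to 1037 CPM of Bmp1 and the library labelled active 1 held 335 CPM, against 374, 525, 338 and 414 CPM in the controls.

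The libraries whose Esr1 went against the label lay at the edge of their group in Bmp1. Deleted control 2, with 87.1 CPM of Esr1, held 461 CPM of Bmp1, and active control 2, with 160.0 CPM, held 525 CPM, the highest Bmp1 value in the controls of each table, though still below the deleted libraries and active libraries 2 to 6. The library labelled active 1, with 1.97 CPM of Esr1, was the lowest in Bmp1 of its table. Esr1 was highest in deleted libraries 1 and 2, the lowest in Sftpc, at 531 and 387 CPM. Whether the driver bears on Sftpc or Bmp1 was not tested.

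**Figure D4:**
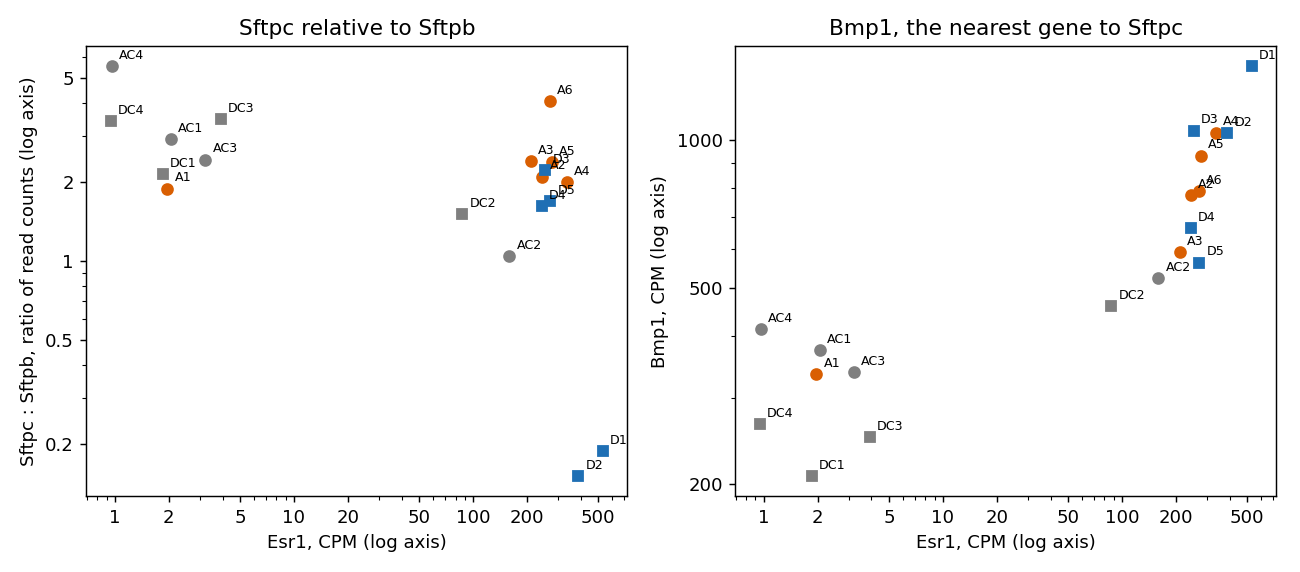
Ratio of Sftpc to Sftpb read counts (left) and Bmp1 in CPM (right) against Esr1 in CPM, all on log axes, 1 point per library (A, Yap active, D, Yap deleted, AC and DC, their controls, with the replicate number). D1 and D2, at 531 and 387 CPM of Esr1, have the lowest ratios, 0.188 and 0.151, and AC2 and DC2 have the highest Esr1 and Bmp1 of the control libraries.

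The other neighbours differed less. Lgi3, 4466 bp on the other side of Sftpc, had log2 fold changes of 0.29 and 0.33 in the active and deleted lines and 1512 and 1213 CPM in deleted libraries 1 and 2, within the 638 to 2166 CPM of the controls. Mbl1, a collectin gene that lies between Sftpa1 and Sftpd, was at 2.18 to 5.46 CPM in all libraries of both tables, with changes of -0.01 and 0.26. Usp39, 4303 bp from Sftpb, had 0.53 ± 0.16 SE in the active line (adjusted p = 0.366, edgeR) and 0.08 in the deleted line.

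In the 4 region tables the authors deposited from ATAC-seq, which name regions gained or lost in each line, Sftpd was the only member with an entry. The share of all genes with an entry was not counted, so the entries of Sftpd are a description only. The authors' deposited table of regions opened in the Yap active line (6017 regions) holds chr14:41184824-41186045, 1222 bp over the Sftpd start site, annotated by the authors as promoter-TSS with a distance of -236 bp to the start. Its score in the authors' deposited table, of unstated scale, was 33.1, rank 3654 in that list. The authors' deposited table of regions closed in the Yap deleted line (676 regions) holds chr14:41184676-41185461, 786 bp, annotated as intron 1 of 7, with a score of 30.0 and rank 171. The deleted line had 2 ATAC libraries and 1 control library, so its control side has no replicate. The active line had 3 ATAC libraries and 3 control libraries. Both entries share 638 bp, positions 41184824 to 41185461, which contain the start site at 41185198. Sftpd RNA stood at 0.56 ± 0.29 SE and 0.48 ± 0.26 SE (log2) in those lines, positive in both and past the test in neither.

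The authors' peak lists of the Yap active line gave weak peaks near the members. In the first Yap active list 3 of the 4 genes had a peak within 1 kb of a start site, if either end of Sftpc is counted as one. The strand of Sftpc was not in the sources used here, so both of its ends were searched. A peak lay within 1 kb of 38.5% of 27025 start sites in the RefSeq promoter table. Sftpd had peaks of 2.98-fold and 2.92-fold enrichment, and Sftpa1 had 2.53-fold over its start. Sftpc had 2.68-fold, 548 bp from its end at position 70520941. At its other end, 70524081, the nearest peak was 2748 bp away, so Sftpc has no peak within 1 kb if it starts there. In the second list Sftpa1 (1.66-fold) and Sftpd (2.67-fold) had one, and in the 2 control lists 0 members did. The shares of all start sites were 21.4% in that second list and 19.5% and 6.86% in the control lists. The −log10 q of these peaks was 0.0 to 0.0835, and the lists hold 61739, 53714, 345109 and 28418 peaks, so a peak in one list and not in another does not show a difference between the groups. Which libraries entered each list is not given, and replicates could not be compared.

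**Figure D5:**
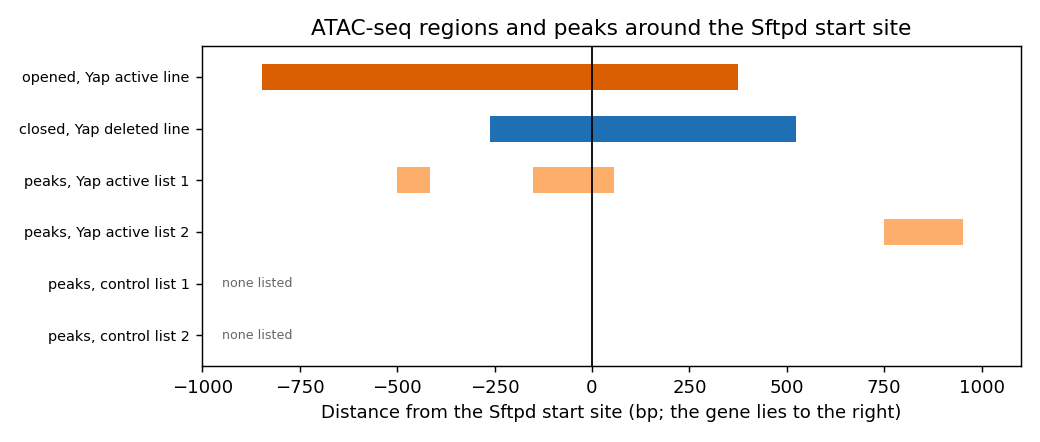
Regions and peaks from the authors' ATAC-seq lists by distance in bp from the Sftpd start site (vertical line), 1 row per list, bars to scale with the gene to the right. The region opened in the Yap active line and the region closed in the Yap deleted line share 638 bp across the start site, and both control peak lists are empty in the window.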

How the data were processed

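RNA and chromatin came from cells sorted with beads in the same way, as separate samples, 50000 cells going to each ATAC library. The submitters' processing notes name build mm10 and, with neither version nor role, Bowtie2, HOMER, Cufflinks, Trim Galore and DESeq. The gene tables deposited by the authors hold raw read counts per gene, 1 table per line. The counting program, its annotation and its use of strand are not given in the sources used here. There, 27 gene names read as dates, and 0 sample columns were left unused. The region lists deposited by the authors carry a score of unstated scale, and their peak lists, in broad-peak format, give fold enrichment (a ratio) and −log10 p and q, deposited without a header.

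After filterByExpr and TMM scaling, edgeR 4.0.16 (R 4.3.3) tested the counts by robust quasi-likelihood, two-sided, with Benjamini-Hochberg adjustment over all genes tested and a call at an adjusted p under 0.05. The 95% intervals are normal ones from the SE. CPM is edgeR's, scaled within a table. Ratios between members used the counts as they are, and were tested by exact permutation over libraries. The ratios to all genes, given as background, used counts plus 0.5. Scripts were tested on simulated data. Likeness was ranked among genes of 4 CPM or more. DESeq2 1.42.0, limma-voom (limma 3.58.1), RLE scaling, totals without the members, no filter, leaving out libraries and a replicate block were the alternatives. Named genes are the members, the 3 genes most like each, the 2 highest and 2 lowest of each surfactant list in each comparison, the targeted genes and Esr1. Members and lists were chosen with earlier results of these data known.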

Additional observations from a re-analysis of the deposited data

Results flagged for a closer look

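Of 28 groups of 4 to 6 libraries looked at, the 4 members and 3 ratios in each of the 4 sample groups, 3 held a library far from the others of its group, and chance marks about 1 in 20 such groups. Sftpc in Yap active control 4 was 83336 CPM, against 11639 to 18180 CPM in the other 3 controls. The log2 ratio of Sftpc to Sftpd was 2.94 in the library labelled Yap active 1, a ratio of 7.67 against 15.7 to 18.5 in the other active libraries. The log2 ratio of Sftpc to Sftpb was 2.03 in Yap active library 6, a ratio of 4.09 against 1.89 to 2.41 in the others. Deleted libraries 1 and 2, which lie low in Sftpc together, are not among the 3.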

How the results depend on the processing

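Of the values recomputed under the alternatives, 456 kept their direction and side of the threshold or stayed close to their size. Another 25 reversed, 13 became stronger, 9 became weaker and 6 moved in another way. A value that kept its direction could still change in size. The deleted ratio of Sftpc to Sftpd went from -1.41 to -0.02 without deleted libraries 1 and 2. Counts of called genes varied most. In the active line (0 in the report) DESeq2 called 18 genes, limma-voom with sample weights 8871, the fit without the libraries whose Esr1 goes against the label 13, and leaving out each library in turn 0 to 2. In the deleted line (1) DESeq2 called 792, and limma-voom, the replicate block and the fit without deleted libraries 1 and 2 called 0 each, with 0 to 4 on leaving out each library. For the difference between lines (0) DESeq2 called 17, limma-voom 21, and leaving out each library 0 to 3. With limma-voom the active changes of Sftpa1, Sftpb, Sftpc and Sftpd were 0.65, 1.13, 1.11 and 0.96 (adjusted p = 0.0219, 0.00139, 0.00523 and 0.00106, highest adjusted p over their alternatives 1.0). That fit called 8871 of the 15685 genes tested, 4479 higher and 4392 lower, so a call there does not mark the members out. DESeq2 gave 0.97 for Sftpa1 in the deleted line. With the library set as covariate the active changes were -0.14 for Sftpa1, -0.14 for Sftpb and -0.75 for Sftpc, the ratio of Sftpc to Sftpa1 was -0.64, and the differences between lines were -0.24 for Sftpc and -0.35 for Sftpd. Without deleted libraries 1 and 2 Sftpc was 0.14 in the deleted line, and the difference between lines in the ratio to Sftpd was -0.10. The difference between lines of Sftpb was 0.09 with limma-voom, 0.15 without the libraries whose Esr1 goes against the label and 0.20 without the endothelial-rich controls, and the active ratio of Sftpc to Sftpa1 was -0.10 without the libraries of unfitting Esr1. On leaving out each library in turn, Sftpc ran from -0.10 (without active control 2) to 1.24 (without active control 4) in the active line and from -0.80 to 0.03 (without deleted control 4) in the deleted line. The difference between lines ran from -1.14 to -0.54 for Sftpa1, -0.63 to 0.01 for Sftpb, 0.14 to 1.72 for Sftpc and -0.26 to 0.39 for Sftpd. The active ratios of Sftpc ran from -0.29 to 0.62 for Sftpa1, -0.51 to 0.29 for Sftpb and -0.52 to 0.23 for Sftpd. In the deleted line leaving out each library gave -2.32 to -1.45, -2.24 to -1.27 and -1.82 to -0.83 for these ratios. The cause of these moves was not tested. Same-numbered libraries deviated together with r = 0.568, 0.0398, 0.0618 and 0.54 in the active and -0.26, 0.468, 0.15 and 0.36 in the deleted line, so the numbers were not taken as pairs. With the number as replicate block Sftpc was -1.19 in the deleted line (adjusted p = 0.449, range over its alternatives 0.449 to 0.99), and the difference between lines of Sftpd was -0.09. Members with a peak numbered 1 in either Yap active list among the upper 50% of fold enrichment, 1 in the second list for peaks that hold the start site, and 2 in the second control list with a window of 5 kb.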

Other observations

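Genes of protein folding in the endoplasmic reticulum, chosen after their values were seen, are given by library because SP-C and SP-B fold there. Hspa5, the chaperone BiP, had 821, 875, 629, 593 and 595 CPM in deleted libraries 1 to 5, against 580, 650, 538 and 602 CPM in deleted controls 1 to 4. Its log2 fold change was 0.25 ± 0.17 SE (adjusted p = 0.482, edgeR). Calr, calreticulin, lay at 543, 638, 436, 392 and 390 CPM against 458, 553, 402 and 415 CPM. Hsp90b1 lay at 442, 474, 391, 352 and 346 CPM against 533, 606, 344 and 362 CPM. All 3 genes were highest of the 5 in deleted libraries 1 and 2, while deleted controls 1 and 2 held more Hsp90b1 than either. Of the other genes looked at, Pdia4, Hspa13, Sdf2l1, Dnajb9 and Manf were also highest in those libraries. Creld2 was not, with 46.6 CPM in deleted library 1 and 46.7 CPM in deleted library 3. In the active line Hsp90b1 (-0.07), Hspa13 (-0.1) and Dnajb9 (-0.16) had negative log2 fold changes. Hspa5, Pdia4, Calr, Creld2 and Manf had positive ones, from 0.2 to 0.43. Sdf2l1, a cofactor of BiP, had the largest change of the 9 genes looked at (0.92 ± 0.24 SE, adjusted p = 0.366, edgeR). All 6 active libraries, at 22.9 to 55.2 CPM, lay above the controls at 15.0 to 21.5 CPM. Groups did not overlap in 0.944% of the 15685 genes tested in that line. The lowest active library was that labelled active 1, whose Esr1 went against the label.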
